A study of Homo sapiens with 9 samples.

Results

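To describe the protein synthesis machinery after knockdown of the long non-coding RNA (lncRNA) *IGF1R-AS1*, the translation initiation and elongation factor genes were examined in RNA-seq counts from VCaP, a prostate cancer cell line. The genes were taken by their symbols: *EIF1* to *EIF6* with any letters or numbers after them, without the *EIF2AK* kinases, and *EEF1* or *EEF2* genes, without *EEF2K*. No measured value entered this rule, which found 60 of the 19918 gene symbols in the count files. Of these, 59 were expressed highly enough to be tested, and *EIF4E1B*, which reached at most 4 counts in any library, was not.

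All 3 groups consisted of VCaP cells that took up 100 pmol of siRNA by reverse transfection and were collected after 72 h. The si025 and si033 groups, labelled as *IGF1R-AS1* knockdown, received siRNAs that both target exon 1 of this lncRNA, and the control group, labelled as WT, received a control siRNA. Each group held 3 libraries of stranded total RNA. The labels do not say whether the libraries came from separate cultures, so *p* values measure the spread between these libraries only. How far *IGF1R-AS1* itself was depleted was not analysed here.

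Initiation factors bring the small ribosomal subunit, the initiator tRNA and the capped end of an mRNA together and leave when the start codon is found and the large subunit joins. Elongation factors then deliver aminoacyl-tRNAs and move the ribosome along the message. Many of these genes are long-known targets of MYC, and eIF4F, the complex of the cap-binding protein eIF4E, the scaffold eIF4G and the helicase eIF4A, is limited by the 4E-binding proteins that growth signalling through mTOR inactivates.

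The hexamer CACGTG, an E-box of the kind that MYC and its partner MAX bind, reads the same on both strands and was searched for in promoters from 250 bases before to 50 bases after each RefSeq gene start. A promoter was found for 48 of the 60 factor genes, and 11 of them (22.9%) held the hexamer, compared with 1230 of 9948 tested genes with a promoter (12.4%). The windows below are shown because they belong to factors whose levels are described in what follows. They come from RefSeq on GRCh38.p14, run 5′ to 3′ on the strand of the gene with the hexamer in capitals, and lie before the gene start of that promoter table. The annotation of the count files starts some genes farther upstream, so both *EIF4E* windows, the second *EIF4G1* window and those of *EIF4B* and *EIF3K* lie inside the gene there. The window of *EIF4EBP3*, which crosses its start, is not shown.
EIF4E, chr4:98929343-98929368, minus strand: acccatcggcCACGTGaccagtcctt
EIF4E, chr4:98929190-98929215, minus strand: acatatccgtCACGTGgccagaagct
EIF4G1, chr3:184314452-184314477, plus strand: ctgtggctgtCACGTGacggggcggg
EIF4G1, chr3:184314529-184314554, plus strand: ctgcgccggtCACGTGggggcgccgg
EIF4H, chr7:74174147-74174172, plus strand: gccgccgcacCACGTGggctgcagag
EIF4B, chr12:53006424-53006449, plus strand: ccgctataatCACGTGattgcctcat
EIF4A3, chr17:80147234-80147259, minus strand: agttccctttCACGTGacgaagagtg
EIF5A2, chr3:170908809-170908834, minus strand: taatccgcagCACGTGgggttgccag
EIF5A2, chr3:170908784-170908809, minus strand: gggcgctcttCACGTGactgggcgga
EIF3F, chr11:7987259-7987284, plus strand: agctctagctCACGTGgtgtatattc
EIF3K, chr19:38619075-38619100, plus strand: aggaagaagtCACGTGgcagccggaa
EIF1B, chr3:40309643-40309668, plus strand: gcgggacggtCACGTGggaggggccg

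The median log2 fold changes of factors with and without the hexamer lay close together. With si025 the medians were -0.21 for the 11 factors with it and -0.17 for the 36 tested factors without it, and with si033 they were -0.09 and -0.06. Within the group with the hexamer, single factors moved in different directions: *EIF4H* fell with si025, *EIF5A2* fell with si033, and *EIF1B* rose with both. A match describes the letters in this window and is not evidence that a factor binds there.

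The 9 libraries held between 11649811 and 28492259 counts. Replicates of a group differed by more than counting noise (chi-square per degree of freedom between 1.66 and 5.11), so none was counted as a duplicate. All 11 prostate and epithelial markers fixed for VCaP cells exceeded 10 CPM (counts scaled by library size) in every library, whereas 5 of 8 markers of blood, endothelial and stromal cells were under 1 CPM in every library and the 8 together reached 5.0 to 9.13 CPM. In bulk RNA, fewer expressing cells and less RNA per cell cannot be told apart.

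Translation factors made up 2.70% to 2.72% of all counts in the control libraries, 2.47% to 2.55% in the si025 libraries and 2.59% to 2.68% in the si033 libraries. The 3 groups did not overlap in this share. *EEF1A1*, which encodes the factor that carries aminoacyl-tRNA to the ribosome, was the gene with the most counts of all 19918 in each of the 9 libraries. Exact permutation tests of 3 against 3 libraries cannot give a *p* value below 0.1, and 0.1 was obtained for each pair of groups.

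Levels were compared between genes as CPM per kilobase of exon. In control cells *EEF1A1* stood at 2248 ± 26.3 (SD, n = 3), followed by the exchange factor subunit *EEF1G* at 973 ± 21.0 and the translocase *EEF2* at 874 ± 20.7. The next 5 were *EIF4G2* (407 ± 7.85), *EIF4A2* (399 ± 10.3), *EIF3E* (397 ± 22.4), *EIF1* (371 ± 5.76) and *EIF4A1* (349 ± 9.66). The order from *EIF4G2* to *EIF3E* is not set by these data, since neighbours in it differ by less than their SDs. *EIF4E*, the cap-binding protein itself, was far lower at 16 ± 1.33, below the 4E-binding protein gene *EIF4EBP1* at 67.9 ± 4.57. This last order depends on the annotated exon lengths of 5322 and 859 bases. In CPM *EIF4E* was the higher of the pair (84.9 beside 58.3).

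**Figure D1:**
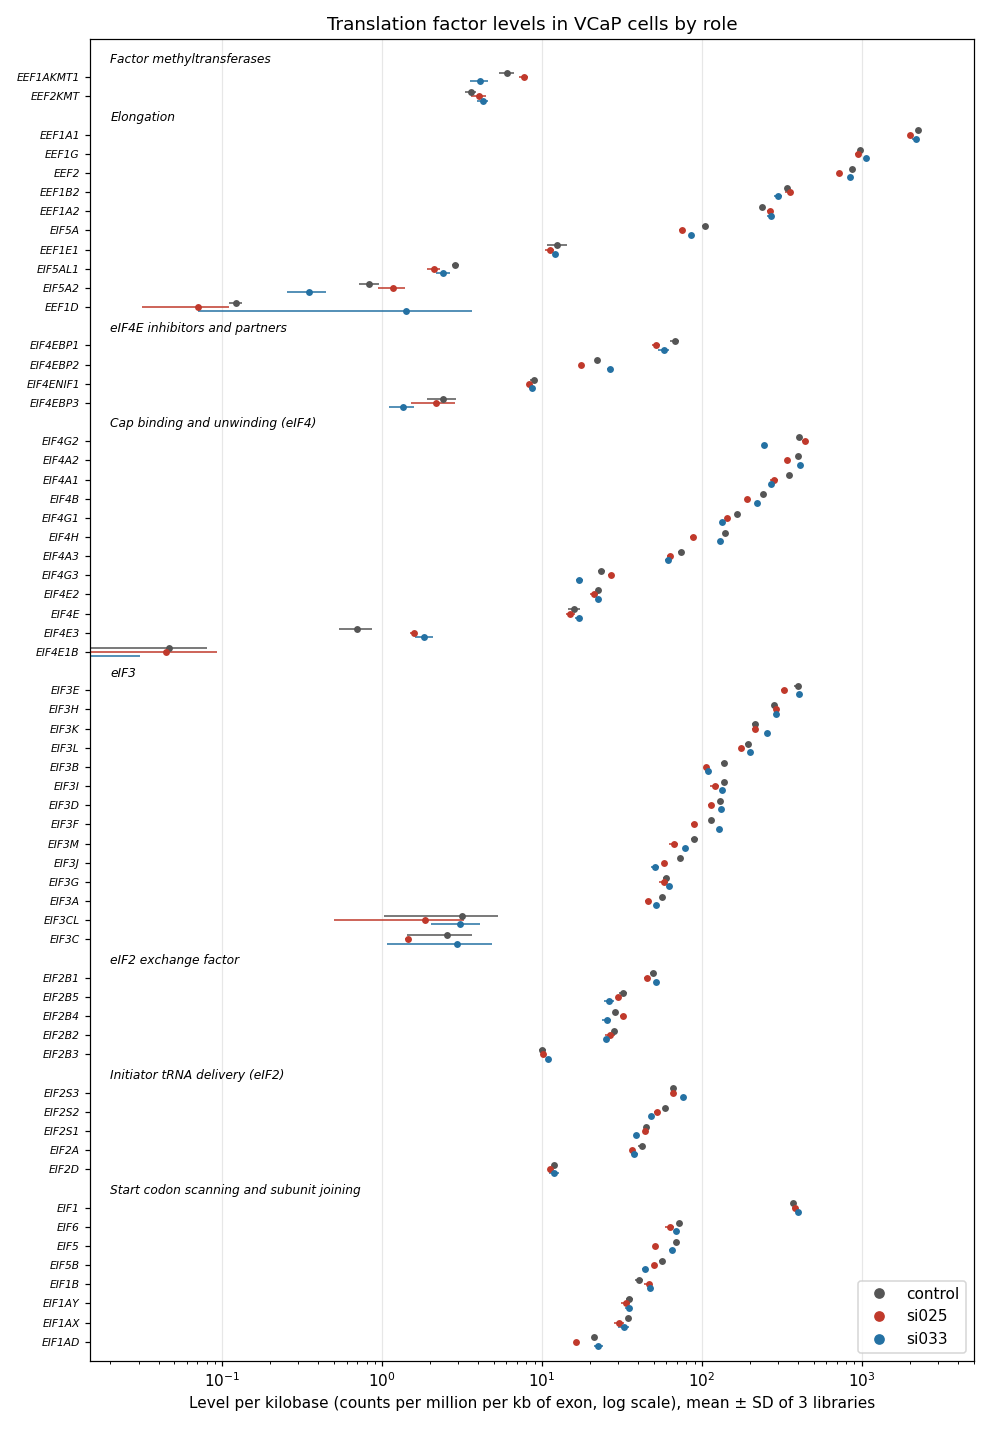
Level of each of the 60 factors in control (grey), si025 (red) and si033 (blue) libraries, in CPM per kilobase of exon on a log scale (points, mean of 3 libraries; bars, SD), grouped by role. Levels span from 0.0463 for *EIF4E1B* to 2248 for *EEF1A1* in control cells, and the groups lie close together for most factors.

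Subunits of eIF3, the large scaffold that binds the small subunit, ranged from 56.5 to 397 per kilobase in control cells, leaving out the near-identical copies *EIF3C* and *EIF3CL*. These copies were listed at 2.53 ± 1.11 and 3.18 ± 2.16. Read pairs that fit several places were not counted under the default of the counting program, so the levels of these copies are uncertain. The 5 subunits of eIF2B, which recharges eIF2 with GTP, were lower, from 10.1 to 49.3.

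Each gene was tested with the quasi-likelihood test of edgeR over 12810 genes, and genes below 0.05 after adjustment are termed called. With si025, 39 of 59 factors (66.1%) were called against control, compared with 61.7% of all genes tested. Of these, 8 were higher and 31 lower (13.6% and 52.5% of the factors), whereas 32.9% of all genes were called higher and 28.8% lower. The median log2 fold change of the factors was -0.17 and that of all genes 0.02. With offsets for exon length and GC content, an alternative chosen after the data were seen, 15 were called higher and 30 lower. Under these offsets 8674 of the 12810 genes tested were called, and the medians were -0.10 for the factors and 0.03 for all genes. At least a 1.5-fold change was reached by 4 called factors and a 2-fold change by 1, whereas 19.3% and 7.02% of all genes were called at these sizes.

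With si033, 33 factors (55.9%) were called, compared with 54.8% of all genes tested. Here 10 were higher and 23 lower, beside 26.9% higher and 27.8% lower among all genes, with a median of -0.06 beside 0.00. Scaling by library totals alone gave 16 higher and 18 lower, but it raised the median of all genes too, from 0.00 to 0.06. The median of the factors stayed 0.06 below that of all genes under both scalings. At least a 1.5-fold change was reached by 5 called factors and a 2-fold change by 3, beside 14.7% and 5.14% of all genes. With the length and GC offsets the median of the factors was -0.07 with si033, beside 0.00 for all genes.

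The siRNAs were also compared directly, without the control mean that both other comparisons share. Control libraries still entered the filter, scaling and estimate of the spread, since all 9 libraries were in 1 fit. Between si025 and si033, 35 factors (59.3%) were called, beside 60.9% of all genes tested. In this comparison 12 were higher and 23 lower in si025 libraries, beside 31.2% and 29.7% of all genes. Of the called factors 7 differed at least 1.5-fold and 3 at least 2-fold, beside 18.9% and 7.7% of all genes. Counts of *EEF1D*, *EIF3C*, *EIF3CL* and *EIF4EBP3* are few or shared with other genes, as described below. Without these 4, chosen after the data were seen, 37, 31 and 33 of 55 factors were called in the 3 comparisons. At least 1.5-fold were then 2, 3 and 5 of them and at least 2-fold were 1, 2 and 1.

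**Figure D2:**
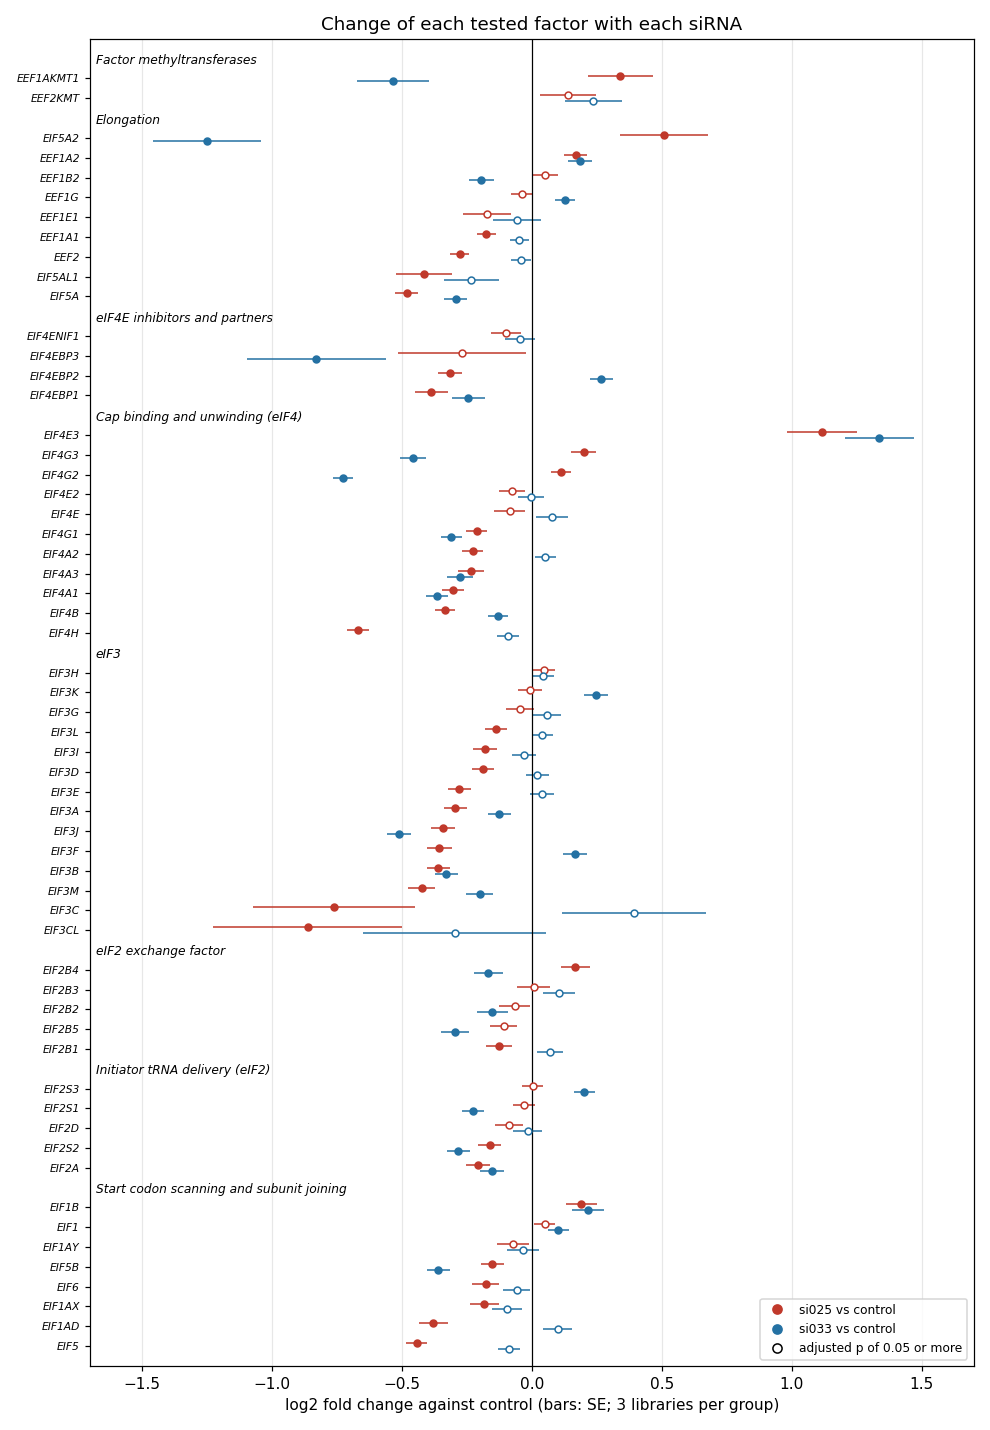
Log2 fold change against control of 58 tested factors with si025 (red) and si033 (blue), by role (points, estimate from edgeR; bars, SE; filled, adjusted *p* under 0.05). *EEF1D* is left out because 1 library sets its value. Most eIF3 subunits lie left of 0 with si025, and *EIF4G2*, *EIF4G3* and *EIF5A2* lie on opposite sides of 0 for the siRNAs.

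Among factors for start codon scanning and subunit joining, *EIF5*, which makes eIF2 hydrolyse its GTP at the start codon, fell with si025. Its CPM were 431, 434 and 436 in control libraries, 312, 315 and 329 in si025 libraries and 393, 424 and 407 in si033 libraries. All si025 libraries lay below all others, with a log2 fold change of -0.44 ± 0.04 (SE, edgeR adjusted *p* = 2.94e-09). With si033 the value was -0.09 (adjusted *p* = 0.0726), and the siRNAs differed by -0.36 ± 0.04 (adjusted *p* = 1.09e-07).

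*EIF5B*, the GTPase that joins the subunits, fell with both siRNAs, by 0.15 on the log2 scale with si025 (adjusted *p* = 0.00417, but -0.05 and 0.221 with the length and GC offsets) and by 0.36 with si033 (adjusted *p* = 3.01e-07). *EIF1B*, a paralog of the scanning factor *EIF1*, rose with both, with log2 fold changes of 0.19 (adjusted *p* = 0.00867, and 0.0504 without control replicate 2) and 0.22 (adjusted *p* = 0.00418). *EIF1* itself gave 0.05 for si025 (adjusted *p* = 0.323), while its si033 value of 0.10 (adjusted *p* = 0.0422) lost its call in 8 of 17 alternative analyses. *EIF1AD*, named for an eIF1A domain, fell with si025 (-0.38 ± 0.06, adjusted *p* = 3.48e-06), gave 0.10 with si033 (adjusted *p* = 0.133) and differed by -0.48 between the siRNAs (adjusted *p* = 1.02e-07). In all, 5 of the 8 factors of this class fell and 1 rose with si025, and 1 fell and 2 rose with si033. The class thus had 75% called with si025 and 37.5% with si033, beside 61.7% and 54.8% of all genes. The length and GC offsets gave 3 lower and 3 higher with each siRNA, so the si025 balance in this class was lost.

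*EIF1AX* and *EIF1AY*, which encode near-identical forms of eIF1A on the X and Y chromosomes, differed in call but not clearly in size. *EIF1AX* gave -0.18 ± 0.06 with si025 (adjusted *p* = 0.00737, but -0.04 and 0.282 with the length and GC offsets) and -0.10 with si033 (adjusted *p* = 0.16). *EIF1AY* gave -0.07 ± 0.06 and -0.03 ± 0.06 (adjusted *p* = 0.301 and 0.658). The difference between the paralogs was not tested, and *EIF1AY* was among the 3 factors that moved least with either siRNA, although the length and GC offsets turned its si025 value to 0.18 (adjusted *p* = 0.00272).

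Of the 5 genes for eIF2 and related tRNA carriers, 2 fell with si025 and 3 fell and 1 rose with si033. Called were thus 40% and 80% of this small class, beside 61.7% and 54.8% of all genes. The length and GC offsets gave 3 lower and 2 higher with si025. *EIF2S1*, the alpha subunit whose phosphorylation slows initiation under stress, fell with si033 (-0.23 ± 0.04, edgeR adjusted *p* = 0.000108) and gave -0.03 with si025 (adjusted *p* = 0.541), or 0.09 with the length and GC offsets. *EIF2S2*, the beta subunit, fell with both (-0.16 and -0.28), and *EIF2S3*, the gamma subunit, rose with si033 (0.20 ± 0.04, adjusted *p* = 0.000225) and gave 0.00 with si025. With si033 the subunits of this one complex therefore moved in different directions.

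Of the 5 eIF2B subunits, 1 rose and 1 fell with si025, and 3 fell with si033, but library totals alone gave 2 higher and 1 lower with si033 and the length and GC offsets 2 higher and 3 lower. TMM scaling without offsets thus called 40% of these subunits with si025 and 60% with si033, beside 61.7% and 54.8% of all genes. Library totals alone also raised the si033 median of all genes, from 0.00 to 0.06. *EIF2B4*, the delta subunit, was among the factors called in opposite directions by the siRNAs. Its log2 fold changes of 0.17 (adjusted *p* = 0.0119) and -0.17 (adjusted *p* = 0.0159) were small, but the direct difference was 0.33 ± 0.06 (adjusted *p* = 1.83e-05). The si025 call was lost without si025 replicate 2 (adjusted *p* = 0.0609) or control replicate 3 (adjusted *p* = 0.0676). The si033 call was lost without si033 replicate 2, without control replicate 1 or 2, and with library totals alone (adjusted *p* between 0.0565 and 0.104). The epsilon subunit *EIF2B5* fell with si033 (-0.30, adjusted *p* = 5.49e-05), gave -0.11 with si025 (adjusted *p* = 0.076) and had a direct difference of 0.19 (adjusted *p* = 0.00383).

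Most eIF3 subunits fell with si025. Of the 14 subunit genes, 11 were called lower and 0 higher, with a median log2 fold change of -0.29. Among all genes 28.8% were called lower and 32.9% higher with this siRNA. For the subunits, library totals alone gave 8 lower and 1 higher, and the length and GC offsets 10 lower and 2 higher. Library totals alone also raised the si025 median of all genes, from 0.02 to 0.07. With si033, 4 were lower and 2 higher, beside 27.8% and 26.9% of all genes, with a median of 0.03. In the direct comparison 9 were lower and 1 higher in si025 libraries, beside 29.7% and 31.2% of all genes, with a median of -0.19.

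*EIF3M* (-0.42 ± 0.05, edgeR adjusted *p* = 1.98e-07), *EIF3B* (-0.36 ± 0.04, adjusted *p* = 2.21e-07) and *EIF3A* (-0.29 ± 0.04, adjusted *p* = 3.75e-06) fell with si025 and also, less far, with si033 (-0.20, -0.33 and -0.13). The si033 call of *EIF3A* was lost in 6 of 17 alternative analyses, among them those without si033 replicate 1 (adjusted *p* = 0.102) or any 1 control library. *EIF3A* and *EIF3B* encode core subunits on which the complex is built. The si025 and si033 values of *EIF3B* were not called different (-0.03, adjusted *p* = 0.565), whereas those of *EIF3M* and *EIF3A* were (-0.22 and -0.17, adjusted *p* = 0.00073 and 0.00194). *EIF3E*, *EIF3D*, *EIF3I* and *EIF3L* fell with si025 (-0.28, -0.19, -0.18 and -0.14, each called) and gave values between -0.03 and 0.04 with si033. With the length and GC offsets *EIF3E* lost its si025 call (-0.07, adjusted *p* = 0.062) and was called higher with si033 (0.16, adjusted *p* = 7.76e-05). *EIF3L* lost its si025 call with library totals alone (adjusted *p* = 0.0548).

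*EIF3F* moved in opposite directions. Its CPM were 138, 144 and 149 in control libraries, 108, 117 and 111 in si025 libraries and 165, 162 and 159 in si033 libraries. The 3 groups did not overlap. The log2 fold changes were -0.36 ± 0.05 with si025 (adjusted *p* = 6.57e-07) and 0.17 ± 0.05 with si033 (adjusted *p* = 0.00377), with a direct difference of -0.52 ± 0.05 (adjusted *p* = 1.31e-09).

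*EIF3J*, a loosely bound subunit that helps load the 40S subunit, fell further with si033. It stood at 188, 182 and 191 CPM in control libraries, 147, 146 and 149 in si025 libraries and 123, 138 and 132 in si033 libraries. Again no groups overlapped. The changes were -0.34 ± 0.05 and -0.51 ± 0.05 (adjusted *p* = 8.77e-07 and 2.83e-09), and the siRNAs differed by 0.17 ± 0.05 (adjusted *p* = 0.00334).

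*EIF3H* and *EIF3G* moved least of all factors beside *EIF1AY*. For *EIF3H* the log2 fold change had a 95% interval of -0.04 to 0.13 with si025 and of -0.04 to 0.12 with si033. The length and GC offsets moved its si025 value to 0.21. *EIF3K* gave -0.01 with si025, or 0.09 with these offsets, and rose with si033 (0.25 ± 0.05, adjusted *p* = 8.87e-05). *EIF3C* and *EIF3CL* were called lower with si025 (-0.76 and -0.86), but each call was lost in 6 of 17 alternative analyses (to -0.39 for *EIF3C* without control replicate 2 and -0.02 for *EIF3CL* without control replicate 3).

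Of the 11 tested factors for cap binding and unwinding, 6 fell and 3 rose with si025, and 6 fell and 1 rose with si033. This is 81.8% and 63.6% of the class called, beside 61.7% and 54.8% of all genes. The length and GC offsets gave 7 lower and 3 higher with si033. Of the eIF4G family, *EIF4G2* and *EIF4G3* differed clearly between the siRNAs. *EIF4G2* (chr11:10797046-10809035, hg38, minus strand), also known as DAP5, lacks the part of eIF4G that binds eIF4E and serves cap-independent and other special initiation. Its CPM were 1733, 1795 and 1789 in control libraries, 1959, 1848 and 1940 in si025 libraries and 1035, 1092 and 1086 in si033 libraries. The si033 libraries thus stood at 0.604-fold of control, with no overlap between any of the groups.

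The log2 fold change of *EIF4G2* was -0.73 ± 0.04 with si033 (edgeR adjusted *p* = 2.75e-13), and the siRNAs differed by 0.84 ± 0.04 (adjusted *p* = 9.21e-15). The rise with si025 was small (0.11 ± 0.04, adjusted *p* = 0.0139) and its call was lost without si025 replicate 1 (adjusted *p* = 0.0501), si025 replicate 3 (0.0643) or control replicate 1 (0.0665).

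*EIF4G3* (chr1:20806292-21177320, minus strand), a cap-dependent scaffold, moved in the same directions. It stood at 203, 217 and 222 CPM in control libraries, 252, 232 and 254 in si025 libraries and 151, 150 and 165 in si033 libraries. The groups did not overlap. The changes were 0.20 ± 0.05 with si025 (adjusted *p* = 0.00132) and -0.46 ± 0.05 with si033 (adjusted *p* = 7.03e-08), with a direct difference of 0.66 ± 0.05 (adjusted *p* = 9.68e-11).

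*EIF4G1*, the main scaffold, fell with both siRNAs, from 1053, 1053 and 1023 CPM in control libraries to 935, 881 and 884 with si025 and 852, 817 and 854 with si033. The changes were -0.21 ± 0.04 and -0.31 ± 0.04 (adjusted *p* = 5.31e-05 and 4.96e-07). The direct difference of 0.10 (adjusted *p* = 0.0359) was lost in 11 of 17 alternative analyses. As a share of the summed per-kilobase level of the 3 scaffolds, *EIF4G2* made up 68.1% ± 0.509 in control, 72.0% ± 0.387 in si025 and 61.8% ± 1.09 in si033 libraries (SD, n = 3 each), without overlap.

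**Figure D3:**
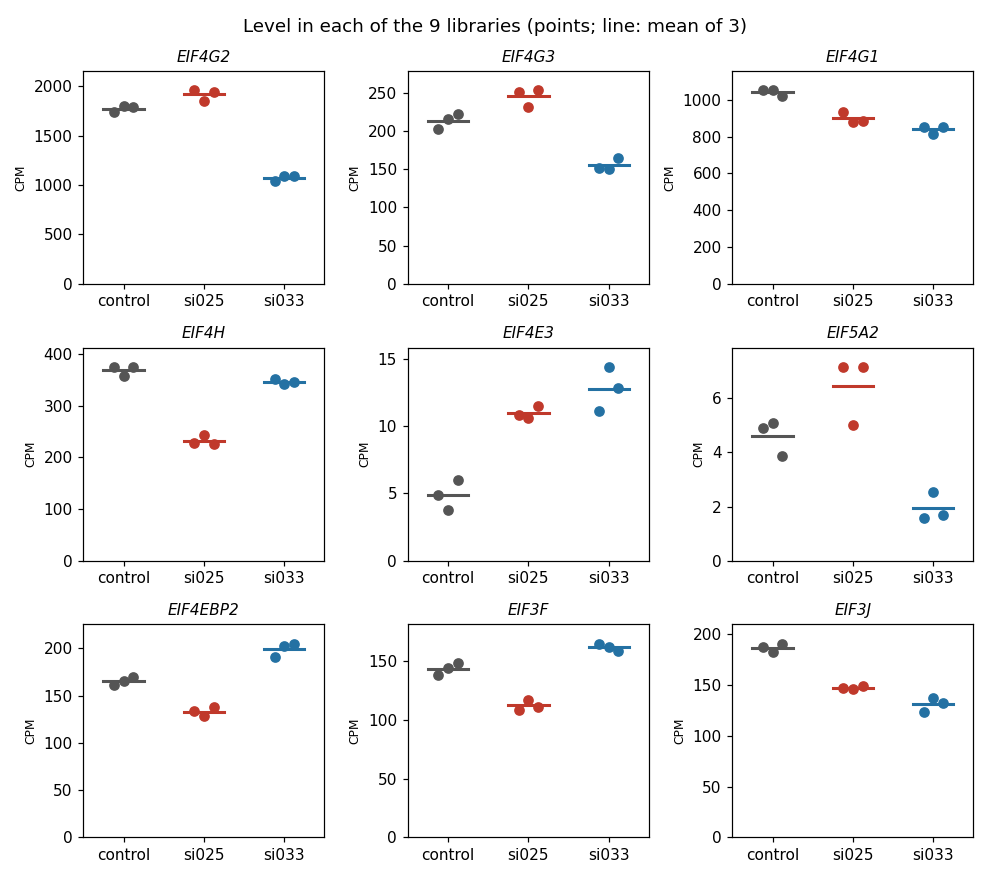
Level of 9 factors in each of the 9 libraries in CPM (points, libraries; lines, mean of 3 libraries; axes start at 0). *EIF4G2* lies between 1035 and 1092 in si033 libraries and at 1733 or more in all others, and *EIF4H* lies between 225 and 243 in si025 libraries and at 341 or more in all others.

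*EIF4H* (chr7:74174376-74197101, plus strand) encodes a cofactor that stimulates the eIF4A helicase. It fell with si025 from 374, 358 and 375 CPM in control libraries to 228, 243 and 225, while the si033 libraries stood at 352, 341 and 346. The si025 libraries reached 0.629-fold of control, below every other library. The log2 fold change was -0.67 ± 0.04 with si025 (edgeR adjusted *p* = 4.37e-12) and -0.09 ± 0.04 with si033 (adjusted *p* = 0.0692), and the siRNAs differed by -0.58 ± 0.04 (adjusted *p* = 4.98e-11).

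*EIF4B*, the other eIF4A cofactor, fell with si025 (-0.33 ± 0.04, adjusted *p* = 1.14e-07) and less with si033 (-0.13 ± 0.04, adjusted *p* = 0.00708, and 0.067 without control replicate 3), a difference of -0.20 (adjusted *p* = 9.49e-05). The helicase *EIF4A1* fell with both (-0.30 and -0.37, adjusted *p* = 1.69e-06 and 1.72e-07), as did *EIF4A3*, the helicase of the exon junction complex (-0.24 and -0.28, adjusted *p* = 0.000238 and 5.67e-05). *EIF4A2* fell with si025 (-0.23, adjusted *p* = 3.21e-05, but -0.05 and 0.113 with the length and GC offsets) and gave 0.05 with si033 (adjusted *p* = 0.29). Of the summed per-kilobase level of *EIF4A1* and *EIF4A2*, the latter made up 53.4% ± 0.695 in control, 54.7% ± 1.21 in si025 and 60.4% ± 0.531 in si033 libraries, with every si033 library above all others.

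The cap-binding proteins themselves moved little, with 1 exception. *EIF4E* gave -0.09 with si025 and 0.08 with si033 (adjusted *p* = 0.225 and 0.292). *EIF4E2*, which represses translation of bound messages, gave -0.08 and -0.00 (adjusted *p* = 0.188 and 0.966). *EIF4E3* (chr3:71679289-71754831, minus strand), an atypical cap-binding paralog, rose with both siRNAs and was the only factor called at 2-fold or more in both comparisons with control.

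*EIF4E3* stood at 4.89, 3.77 and 5.99 CPM in control libraries, 10.8, 10.6 and 11.5 in si025 libraries and 11.1, 14.4 and 12.8 in si033 libraries. Every knockdown library lay above every control library. The changes were 2.17-fold and 2.53-fold (log2 1.12 ± 0.13 and 1.34 ± 0.13, edgeR adjusted *p* = 1.89e-07 and 1.29e-08). The direct difference was -0.22, with a 95% interval from -0.45 to 0.01 (adjusted *p* = 0.105). In the knockdown libraries *EIF4E3* made up 4.15% ± 0.296 and 4.44% ± 0.508 of the summed per-kilobase level of *EIF4E*, *EIF4E2* and *EIF4E3*, compared with 1.79% ± 0.348 in control.

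Of the eIF4E inhibitors and partners, 2 of 4 fell with si025, and 2 fell and 1 rose with si033. Among all genes 61.7% were called with si025 and 54.8% with si033. *EIF4EBP1* fell with both siRNAs (-0.39 ± 0.06 and -0.24 ± 0.06, adjusted *p* = 1.59e-05 and 0.00259), and its si033 call was lost without si033 replicate 3 (adjusted *p* = 0.0501). *EIF4EBP2* moved in opposite directions, from 161, 166 and 170 CPM in control libraries to 133, 128 and 138 with si025 and 191, 202 and 205 with si033. No groups overlapped. The changes were -0.32 ± 0.05 and 0.27 ± 0.05 (adjusted *p* = 2.83e-06 and 2.85e-05), with a direct difference of -0.59 ± 0.05 (adjusted *p* = 1.43e-10).

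The ratio of *EIF4EBP1* plus *EIF4EBP2* to *EIF4E*, taken per kilobase, was 5.66 ± 0.560 in control, 4.61 ± 0.205 in si025 and 4.97 ± 0.268 in si033 libraries. The si025 libraries lay below all control libraries (exact permutation *p* = 0.1, the smallest possible), and the si033 libraries overlapped with control (exact permutation *p* = 0.2). This ratio depends on annotated exon lengths (859 bases for *EIF4EBP1*, 7531 for *EIF4EBP2*, 5322 for *EIF4E*), which give *EIF4EBP1* counts the most weight. Mean CPM of the 3 genes, in this order, were 58.3, 166 and 84.9 in control and 49.7, 199 and 90.4 in si033 libraries. Whether the si033 ratio lay below control therefore depends on this weighting. *EIF4EBP3* was called lower with si033 (-0.83 ± 0.27, edgeR adjusted *p* = 0.0112), but it held only 10 to 53 counts per library, 74.7% of its exon bases are shared with the readthrough gene *ANKHD1-EIF4EBP3*, and the call was lost without control replicate 3 (-0.59, adjusted *p* = 0.148).

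Of the 10 elongation factors, 4 fell and 2 rose with si025, and 3 fell and 3 rose with si033. With each siRNA 60% of this class were called, near the 61.7% and 54.8% of all genes. Without *EEF1D*, whose call rests on 1 library, 2 rose with si033. The abundant genes of this class moved by small amounts. *EEF1A1* fell with si025 (-0.18 ± 0.04, edgeR adjusted *p* = 0.000211), and *EEF2* fell with si025 (-0.28 ± 0.04, adjusted *p* = 8.69e-07), while neither was called with si033 (-0.05 and -0.04, adjusted *p* = 0.271 and 0.347). The direct differences were -0.13 and -0.24 (adjusted *p* = 0.00416 and 8.91e-06). *EEF1G* rose with si033 (0.13, adjusted *p* = 0.00897) and *EEF1B2*, another subunit of the same exchange factor, fell with si033 (-0.19, adjusted *p* = 0.00144).

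*EEF1A2*, the form of eEF1A known from muscle and neurons, rose with both siRNAs (0.17 and 0.19, adjusted *p* = 0.00231 and 0.00127). It made up 9.56% ± 0.282 of the summed per-kilobase level of *EEF1A1* and *EEF1A2* in control libraries, 11.8% ± 0.283 in si025 and 11.1% ± 0.695 in si033 libraries. Both knockdown groups lay above control without overlap and overlapped with each other.

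*EIF5A*, which helps ribosomes through stalling sequences and carries the amino acid hypusine, fell with both siRNAs (-0.48 ± 0.04 and -0.29 ± 0.04, adjusted *p* = 2.57e-09 and 6.39e-06). Its paralog *EIF5A2* (chr3:170888415-170908637, minus strand) stood at 4.89, 5.07 and 3.86 CPM in control libraries, 7.16, 5.01 and 7.16 in si025 libraries and 1.57, 2.55 and 1.69 in si033 libraries. The si033 libraries lay below all others, and si025 replicate 2 lay within the control range.

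*EIF5A2* fell to 0.42-fold with si033 (log2 -1.25 ± 0.21, adjusted *p* = 2.36e-05) and differed 3.39-fold between the siRNAs (log2 1.76 ± 0.20, adjusted *p* = 5.41e-08). Its rise with si025 (0.51 ± 0.17, adjusted *p* = 0.0123) was lost without si025 replicate 3 (adjusted *p* = 0.0781) or control replicate 3 (adjusted *p* = 0.129). *EIF5A2* made up 0.79% of the summed per-kilobase level of *EIF5A* and *EIF5A2* in control, 1.54% in si025 and 0.409% in si033 libraries.

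The last class holds *EEF1AKMT1* and *EEF2KMT*, which methylate lysines of eEF1A and eEF2. *EEF1AKMT1* stood at 6.55, 5.58 and 6.88 CPM in control libraries, 8.02, 8.63 and 7.65 with si025 and 3.87, 4.10 and 4.90 with si033. The groups did not overlap. It fell with si033 (-0.54 ± 0.14, edgeR adjusted *p* = 0.00223) and the siRNAs differed by 0.88 ± 0.13 (adjusted *p* = 4.88e-06). Its rise with si025 (0.34 ± 0.13, adjusted *p* = 0.0223) was lost with DESeq2 (adjusted *p* = 0.0701), without si025 replicate 2 (0.0819) and without control replicate 2 (0.106).

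*EEF1D*, a further subunit of the eEF1 exchange factor, could not be read from these counts. It held 12, 12 and 24 counts in control libraries, 4, 18 and 10 in si025 libraries and 14, 401 and 26 in si033 libraries. The log2 fold change of 3.41 with si033 (adjusted *p* = 0.00301) therefore rests on si033 replicate 2, and without it was 0.06 (adjusted *p* = 0.896). The direct difference went from -4.11 to -0.77 (adjusted *p* = 0.082) without the same library.

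Neighbours of *EEF1D* on chromosome 8 were also low. *GSDMD*, *MROH6*, *TIGD5* and *PYCRL* held 0 or 1 count in the libraries, and *NAPRT* ranged from 1 to 490, whereas *ZC3H3* and *RHPN1* farther off held at least 123 and 873 counts in every library. The cause was not tested.

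**Figure D4:**
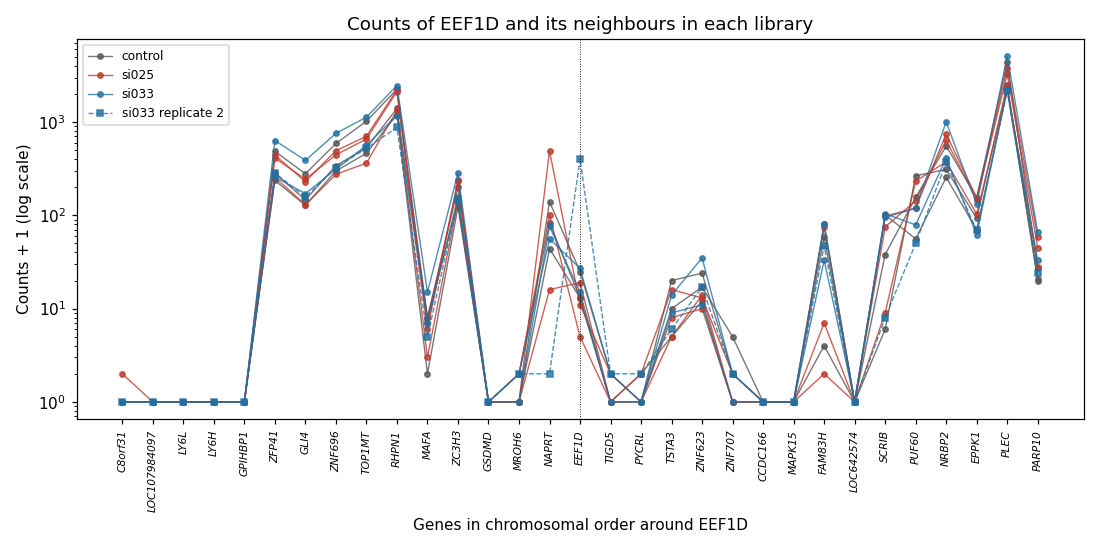
Counts plus 1 (log scale) of *EEF1D* and the 15 genes on each side of it in chromosomal order, in each of the 9 libraries (lines; si033 replicate 2 with squares). Counts are 0 or 1 at *GSDMD* and *MROH6* on one side and at *TIGD5* and *PYCRL* on the other. *NAPRT*, directly beside *EEF1D*, ranges from 1 to 490. The single high value of *EEF1D* is 401 counts in si033 replicate 2.

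Other genes of the translation pathway were read from a list of 43 regulators, release factors and mitochondrial factors, of which 42 were tested. With si025, 11 of these genes rose and 19 fell, beside 32.9% higher and 28.8% lower among all genes. With si033, 8 rose and 21 fell, beside 26.9% and 27.8%. Library totals alone gave 15 higher and 17 lower with si025 and 9 higher and 13 lower with si033. This scaling also raised the median log2 fold change of all genes, from 0.02 to 0.07 and from 0.00 to 0.06. Between the siRNAs, 13 of the 42 were higher and 9 lower in si025 libraries, beside 31.2% and 29.7% of all genes.

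Several genes of this list fell with both siRNAs. *PPP1R15B*, which directs the phosphatase that reactivates eIF2, gave -0.53 and -0.72, and the poly(A)-binding protein genes *PABPC4* and *PABPC1*, whose products bind eIF4G, gave -0.49 and -0.53, and -0.32 and -0.26. The release factor genes *ETF1* (-0.28 and -0.31) and *GSPT1* (-0.19 and -0.36) also fell (edgeR adjusted *p* at most 0.000603 for all of these values). *RPS6KB1*, the S6 kinase downstream of mTOR, rose with both (0.75 and 0.25, adjusted *p* = 4.66e-11 and 0.00073).

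Other regulators differed between the siRNAs. *MTOR* rose with si025 (0.44 ± 0.05, adjusted *p* = 3.24e-08) and fell with si033 (-0.19 ± 0.05, adjusted *p* = 0.00191), with a direct difference of 0.64 (adjusted *p* = 8.16e-11). *PDCD4*, an inhibitor of eIF4A, gave 0.23 and -0.19 (adjusted *p* = 4.68e-05 and 0.000641), with a direct difference of 0.42 (adjusted *p* = 9.67e-09). *EEF2K*, the kinase that inactivates eEF2, rose with si033 (0.59 ± 0.06, adjusted *p* = 8.88e-09) and gave -0.05 with si025 (adjusted *p* = 0.498), a difference of -0.64 (adjusted *p* = 1.39e-09). *EEF2* itself gave -0.04 with si033 and fell with si025, as described above.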

How the data were processed

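RNA-seq libraries of VCaP cells, 3 each for control siRNA, si025 and si033, were assigned to groups by their titles. According to the methods of the study, reads were aligned with HISAT2 (2.1.0 per the labels). Per the file headers, the authors made the deposited counts with featureCounts 1.5.2, as raw strand-specific read pairs over exons of a RefSeq annotation of hg38, without normalization. The methods name GENCODE instead, and the labels and methods name different RNA extraction kits. The files listed 19918 symbols, each of them a gene.

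From these counts, edgeR 4.0.16 (R 4.3.3) was run with its default expression filter, TMM normalization and the quasi-likelihood test, with all 9 libraries in 1 fit of 3 group means. Adjustment followed Benjamini and Hochberg over 12810 genes, and all adjusted *p* values come from this test unless DESeq2 1.42.0 is named. The biological coefficient of variation was 4.13%. SEs were computed from the F statistics. CPM were scaled by TMM. Shares and ratios within a library were compared by two-sided exact permutation tests. Intervals and SDs cover these libraries only. The scripts were tested on simulated data.

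The factor genes and gene lists were chosen with earlier results of these data known. Factors described with values were, by rule, the 8 called factors with the largest change in each comparison, those called in opposite directions by the siRNAs, the 8 most abundant, paralogs, and the 3 that moved least. *EIF1AD*, *EIF5B*, the eIF2 and eIF2B subunits other than *EIF2B4*, *EIF3A*, *EIF3B*, *EIF3D*, *EIF3I*, *EIF3K*, *EIF3L*, *EIF4B* and *EEF1B2* and the 9 pathway genes were named after their values were seen. Alternatives were other scalings, DESeq2, no filter, only the compared groups, a replicate block, leaving out each library, and other memberships. Offsets for exon length and GC content (mgcv 1.9.3) were added after the data were seen, as were the other choices for the pathway list and a membership without 4 low-count genes.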

Additional observations from a re-analysis of the deposited data

Results flagged for a closer look

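The siRNAs target the same exon of the same lncRNA, and 40 of the 58 tested genes described above were called different between them by edgeR. Some of these genes were chosen for such a difference, so this share says nothing about the factors as a set, of which 59.3% were called beside 60.9% of all genes tested. The differences are log2, si025 minus si033, with 3 libraries per group. Among initiation factors higher in si025 libraries were *EIF4G2* (0.84), *EIF4G3* (0.66), *EIF2B4* (0.33), *EIF5B* (0.21), *EIF2B5* (0.19), *EIF2S1* (0.19), *EIF3J* (0.17), *EIF2S2* (0.12) and *EIF4G1* (0.10). The eIF4E inhibitor *EIF4EBP2* (-0.59) was lower in si025 libraries. Initiation factors lower in si025 libraries were *EIF4H* (-0.58), *EIF3F* (-0.52), *EIF1AD* (-0.48), *EIF5* (-0.36), *EIF3E* (-0.32), *EIF4A2* (-0.28), *EIF3K* (-0.25), *EIF3M* (-0.22), *EIF3D* (-0.21), *EIF4B* (-0.20), *EIF2S3* (-0.20), *EIF3L* (-0.18), *EIF3A* (-0.17), *EIF4E* (-0.16) and *EIF3I* (-0.15).

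Among elongation factors and their methyltransferases, *EIF5A2* (1.76), *EEF1AKMT1* (0.88) and *EEF1B2* (0.25) were higher in si025 libraries, and *EEF2* (-0.24), *EIF5A* (-0.19), *EEF1G* (-0.17) and *EEF1A1* (-0.13) were lower. Of the other pathway genes, *MTOR* (0.64), *RPS6KB1* (0.50), *PDCD4* (0.42), *PPP1R15B* (0.19) and *GSPT1* (0.17) were higher and *EEF2K* (-0.64) was lower.

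*EEF1D* (-4.11) and *EIF3C* (-1.16) also differed by call. The first rests on si033 replicate 2, as given above, and *EIF3C* went to -0.37 (adjusted *p* = 0.223) without si033 replicate 3. The call for *EIF4E* was lost without si025 replicate 1 (adjusted *p* = 0.124) or si033 replicate 2 (adjusted *p* = 0.099). That for *EIF2S2* was lost without si025 replicate 2 (adjusted *p* = 0.0963) or si033 replicate 3 (adjusted *p* = 0.125), and that for *EIF3I* without si025 replicate 3 (adjusted *p* = 0.0601).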

How the results depend on the processing

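Leaving out 1 library at a time gave 34 to 40 called factors with si025, 29 to 34 with si033 and 32 to 39 between the siRNAs, and medians of -0.19 to -0.12, -0.08 to -0.03 and -0.13 to -0.09. Calls among all genes then ranged over 7151 to 8096, 6151 to 7249 and 7023 to 7804, of 12874 to 13095 genes tested. The lowest size of the si025 median came without control replicate 3 (-0.12). Library totals alone moved the median to -0.12 with si025 and to -0.000687 with si033, but that of all genes moved alike, to 0.07 and 0.06, so the gap between them stayed at -0.19 and -0.06. The length and GC offsets moved the median of the factors to -0.10 with si025. Without factors that have near-identical copies, 25 of 39 were called with si025 and 21 of 39 between the siRNAs. Fewer factors were counted here, and 61.7% and 60.9% of all genes were called in these comparisons. DESeq2 called 36, 32 and 34 factors with si025, with si033 and between the siRNAs, beside 7306, 6290 and 7134 of 12810 genes. With the length and GC offsets *EIF1AY*, *EIF2S1* and *EIF3K* turned to 0.18, 0.0937 and 0.0937 with si025 (adjusted *p* = 0.00272, 0.0105 and 0.0112) and *EIF1B* to 0.12 between the siRNAs (adjusted *p* = 0.032). The cause was not tested. Calls among pathway genes without 1 library ranged over 29 to 30, 23 to 31 and 19 to 24.

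Same-numbered libraries did not deviate together from their group means (correlations between -0.02 and 0.07 over genes). With 3 libraries per group this cannot exclude a shared batch, and the titles do not state one. Replicate 3 held the most counts in every group (22436104 in si025, 28492259 in si033 and 26760578 in control). With a replicate block 39, 33 and 37 factors were called, compared with 39, 33 and 35. Among all genes 8000, 7094 and 7843 were called with this block, compared with 7908, 7015 and 7801. Of 985 values of 58 named genes per comparison, 940, 942 and 945 kept their side of the threshold, and their direction where called. Values called in neither analysis could change sign and were still counted as kept. The widest SEs with si025 were those of *EEF1D* (1.47), *EIF3CL* (0.37), *EIF3C* (0.31) and *EIF4EBP3* (0.25). *EIF5A2* (0.17) and *EEF1AKMT1* (0.13), both under 10 CPM, also had wider SEs than most factors.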
